A study of Homo sapiens with 17 samples.

Results

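The replication-dependent histone genes were taken as every gene of the count table whose symbol is H1-1 to H1-6 or starts with H2AC, H2BC, H3C or H4C followed by a number. The rule found 64 genes of the 19141 counted, namely 6 genes of linker histone H1, 14 of H2A, 18 of H2B, 12 of H3 and 14 of H4. Of these genes, 51 lie on chromosome 6 and 11 on chromosome 1, with H4C16 on chromosome 12 and H2BC12L on chromosome 21.

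The libraries came from YB5, a line derived from the colon cancer line SW48 that carries GFP behind a methylated, silent CMV promoter at 1 integration site. All groups share this reporter and were set apart by treatment and time, with a labelled batch that also differs between some of them. Cells received DMSO, the solvent, or 250 nM toyocamycin, an adenosine analogue that the study examined as an inhibitor of CDK9, the kinase that releases paused RNA polymerase II. DMSO and toyocamycin were compared at 2 h (2 against 2 libraries), 10 h (1 DMSO and 2 toyocamycin libraries), 24 h (1 against 1), 48 h (1 against 1) and a last time labelled 72 h, which the text of the study gives as 96 h (3 against 3). Replicate 2 of each arm at 2 h and at 10 h is labelled batch 2 and every other library batch 1, so the single DMSO library of 10 h is in batch 2 and the 2 toyocamycin libraries of 10 h are in different batches. The 17 libraries held 8735465 to 22121364 counts. The labels call the experiments biological triplicates without tying libraries to separate cultures, so p-values measure the spread between these libraries.

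Replication-dependent histone genes supply the histones that package newly made DNA, and they are transcribed mainly in S phase. Their mRNAs are the exception among animal mRNAs: in place of a polyA tail they end just after a short stem-loop, which binds SLBP and is cut by a complex that contains U7 snRNA, LSM10, LSM11 and the endonuclease CPSF3. Some of the genes also make transcripts that run past the stem-loop to a polyA signal, above all when cells leave the cycle or when stem-loop processing is impaired, and CDK9, NELF and the cap-binding complex have each been tied to this processing. The libraries were made from polyA-selected RNA, so for every value below a change in transcript level and a change in the share of transcripts that carry a polyA tail cannot be told apart.

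The stem-loop is shown first because it sets the transcript end that polyA selection does not capture. It was found within 150 bases after the stop codon in 63 of the 64 histone genes, starting 23 to 63 bases after the stop, and in 4 of 18905 other coding genes (0.0212%), one of them H2AX. The exception was H2BC12L. The following windows hold the 16 bases of the stem-loop in capitals with 5 bases on each side, and each set of genes is one that the results turn on.
H1-2: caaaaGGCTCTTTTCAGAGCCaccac
H1-3: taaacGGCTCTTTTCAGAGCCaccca
H2AC11: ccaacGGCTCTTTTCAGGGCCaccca
H2AC25: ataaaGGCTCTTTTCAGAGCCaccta
H2BC5: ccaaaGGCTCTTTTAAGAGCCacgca
H2BC12: ccaaaGGCTCTTTTAAGAGCCactta
H3C6: ccaaaGGCTCTTCTCAGAGCCaacca
H4C8: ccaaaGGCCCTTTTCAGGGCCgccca
H4C12: caaaaGGCCCTTTTTAGGGCCcccac
In GRCh38 these windows lie at chr6:26055739-26055764 (H1-2), chr6:26234212-26234237 (H1-3), chr6:27146361-27146386 (H2BC12), chr6:26285126-26285151 (H4C8), chr6:27831173-27831198 (H4C12) and, for H2AC25, chr1:228457364-228457389, all on the minus strand. Those of H2AC11, H2BC5 and H3C6 lie on the plus strand at chr6:27133510-27133535, chr6:26158582-26158607 and chr6:26225591-26225616.

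The 16-base core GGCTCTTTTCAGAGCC was shared by 36 genes of the H1, H2A, H2B and H3 classes. The H4 genes had a stem of their own, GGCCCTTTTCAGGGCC in 10 genes and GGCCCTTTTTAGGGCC in 4, and 5 H2B genes had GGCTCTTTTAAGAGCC. The gene models differed more than the stem-loops. In 46 genes the annotated transcript ended at most 18 bases past the stem-loop, and in 17 at least 1 annotated transcript ran 100 bases or more past it in genomic distance, among them H2AC6, H2AC25, H2BC5, H2BC21, H3C6, H3C10 and H4C8. The polyA signal AATAAA stood within 50 bases after the stem-loop in H1-2 and H2BC5 alone, in both at base 13. The counts are sums over a whole gene, so reads before and past the stem-loop cannot be told apart.

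Promoters were taken as the 250 bases before the annotated start (RefSeq, GRCh38) and were matched for 58 of the 64 genes. On either strand, TATAA was present in 53 of them (91.4%), against 18.9% of all 35116 promoters, and CCAAT in 48 (82.8%), against 32%. CCAAT was present in every matched H1, H2A, H2B and H3 promoter and in 2 of 12 H4 promoters. The octamer ATTTGCAT was present in 11 of 13 H2A and 13 of 17 H2B promoters, in none of H1, H3 or H4, and in 1.63% of all promoters. The promoters of H1-2 and H1-3 are printed because of these linker histone genes of 1 cluster only the second rose at 72 h, and that of H2AC11 as one that carries the octamer. Capitals mark matches to these motifs on either strand.
H1-2: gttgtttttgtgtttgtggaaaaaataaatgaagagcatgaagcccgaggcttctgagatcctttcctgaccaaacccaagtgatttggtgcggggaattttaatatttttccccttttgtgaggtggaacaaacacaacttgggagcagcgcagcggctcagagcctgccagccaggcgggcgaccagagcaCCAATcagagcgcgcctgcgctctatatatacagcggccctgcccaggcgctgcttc
H1-3: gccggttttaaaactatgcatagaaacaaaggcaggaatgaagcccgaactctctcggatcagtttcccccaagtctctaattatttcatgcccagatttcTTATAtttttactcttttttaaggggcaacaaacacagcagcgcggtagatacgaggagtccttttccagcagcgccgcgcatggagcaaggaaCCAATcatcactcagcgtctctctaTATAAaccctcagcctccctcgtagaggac
H2AC11: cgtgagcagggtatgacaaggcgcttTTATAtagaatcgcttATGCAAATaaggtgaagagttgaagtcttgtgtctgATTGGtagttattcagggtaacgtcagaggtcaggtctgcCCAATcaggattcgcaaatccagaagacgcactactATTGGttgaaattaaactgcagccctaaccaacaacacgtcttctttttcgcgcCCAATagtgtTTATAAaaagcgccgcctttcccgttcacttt
Those of H1-2 and H1-3 lie on the minus strand at chr6:26056471-26056720 and chr6:26234988-26235237, and that of H2AC11 on the plus strand at chr6:27132793-27133042.

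Together the histone genes stood at 0.994 times the DMSO level after toyocamycin at 2 h and at 5.06 times at 72 h. Their summed level in CPM, a count relative to the library's total as scaled by the trimmed mean of M-values (TMM), was 191 and 176 in the DMSO libraries of 2 h and 181 and 184 in the toyocamycin libraries. At 10 h it was 119.8 CPM in DMSO and 263 and 199 CPM in toyocamycin, at 24 h 133 and 335 CPM, and at 48 h 71.5 and 459 CPM. At 72 h the sums were 130.1, 138 and 121 CPM in DMSO and 691, 650.1 and 625 CPM in toyocamycin, and the arms did not overlap. At the times between, the ratio of the arm means was 1.93 (10 h), 2.52 (24 h) and 6.42 (48 h). Even at its highest the class was a small share of the RNA sequenced, at 0.0144, 0.0149 and 0.0136% of counts in the DMSO and 0.0522, 0.0472 and 0.0471% in the toyocamycin libraries of 72 h.

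**Figure D1:**
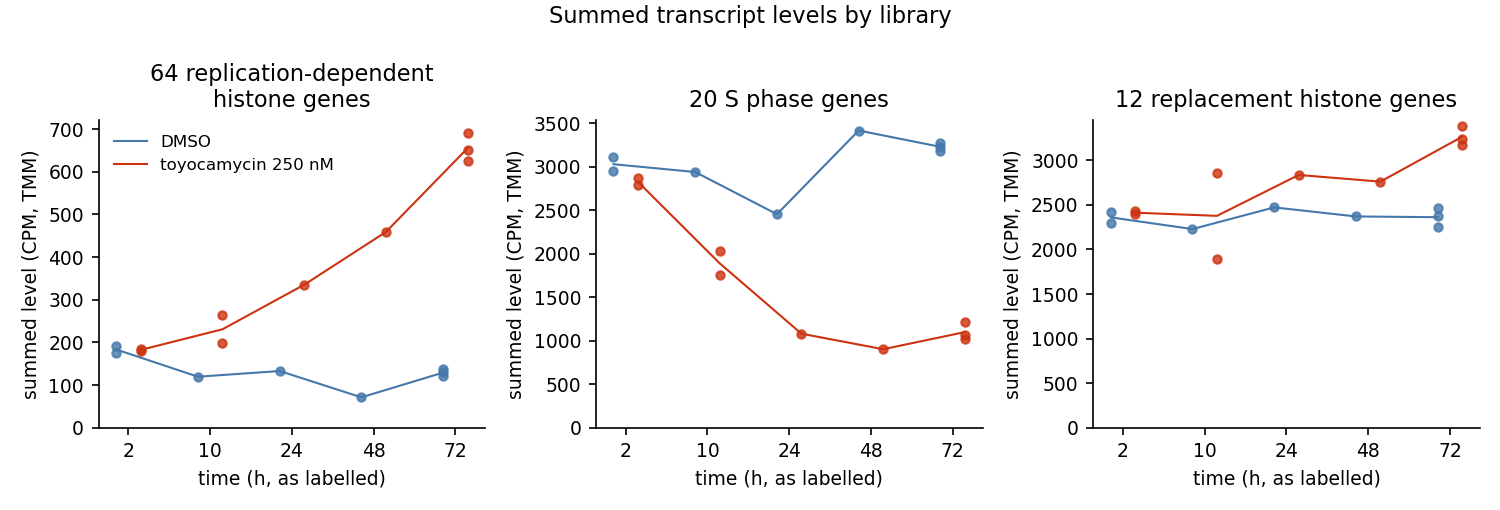
Summed levels (CPM, TMM scaled) of the 64 histone genes, of 20 genes of S phase and of 12 replacement histone genes by time as labelled. Points are libraries and lines join the arm means, with DMSO in blue and toyocamycin in red. The histone sum lay between 625 and 691 CPM in toyocamycin at 72 h while the S phase sum was at most 1212 CPM there.

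The make-up of the sum changed as well. The genes H2BC12, H1-2 and H2AC25 have the most counts of the class, and they made up 63.6% to 67.3% of the histone counts in the DMSO libraries of 72 h and 29.5% to 32.6% in the toyocamycin libraries. Without these 3 genes the sum was 10.3 times higher in toyocamycin at 72 h. By class, the ratio at 72 h was 2.32 for H1, 2.79 for H2A, 6.78 for H2B, 10.00 for H3 and 11.6 for H4. H3 genes summed to 7.43, 7.52 and 6.48 CPM in DMSO and 75.8, 65.4 and 73.1 CPM in toyocamycin at 72 h, and H4 genes to 4.96, 8.45 and 10.1 and 88.5, 97.5 and 88.2 CPM. On library size alone, without TMM, the ratio of the whole sum at 72 h was 3.41.

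Per gene, 43 of the 64 histone genes passed the filter on low counts in the fit of 2, 24, 48 and 72 h. The 21 genes that did not pass had at most 10 counts in any library. Of the 43 genes, 28 passed in DMSO alone and 15 only through the toyocamycin libraries, and the latter had to differ. A gene was called where edgeR's quasi-likelihood test gave a p under 0.1 after Benjamini-Hochberg adjustment over all genes tested. At 2 h no histone gene was called, while 0.518% of all tested genes rose and 8.42% fell. The median log2 fold change of the 43 genes at 2 h was 0.01, against 0.02 over all tested genes. DESeq2's Wald test called none at 2 h either. With the replicate number, here the labelled batch, as a block in a fit of the libraries of 2 h alone, 1 of 23 tested histone genes was called, H1-4, at -0.87 (SE 0.37, edgeR adjusted p = 0.0751). In the fit without the block 1, H3C12, had an unadjusted p under 0.05 in edgeR, with 0 and 0 CPM in DMSO and 0.373 and 0.0542 CPM in toyocamycin.

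At 10 h, 8 of the 46 histone genes tested rose and none fell, against 20.4% rising and 24.4% falling among all genes. This share was near the background. On library size alone 4 rose and 1 fell, and scaled on mitochondrially encoded genes 1 rose and 1 fell. With batch as a term 13 rose, and the only DMSO library of this time is in batch 2. The risers were H1-2, H2AC25, H2BC6, H2BC11, H2BC12, H2BC12L, H2BC26 and H4C9. H1-2, the most abundant linker histone gene here, was at 24.3 CPM in DMSO and 73.7 and 45.3 CPM in toyocamycin, a log2 fold change of 1.30 (SE 0.31, adjusted p = 0.00397). H2BC12L, H2BC26 and H2BC6 had the largest fitted rises of the 8, on few reads. H2BC6 was at 0.0844 CPM in DMSO and 0.143 and 1.11 CPM in toyocamycin, and H2BC26 was at 0 and at 0.0714 and 0.553 CPM, so in both the rise stood in replicate 2 and neither was called without that library. H2BC12L was listed at 0 in DMSO and at 1.499 and 0.663 CPM in toyocamycin, at least 8.54-fold higher against a floor of 3 counts. Its level at 2 h was 0.968 and 0 CPM in the DMSO libraries of batch 1 and batch 2, as far apart as the arms at 10 h, where the DMSO library is of batch 2. It lies opposite HSF2BP, and the strand setting of the counting is not given in the sources used here. Toyocamycin replicate 2 of 10 h was the shallowest library and had 6.55% of its counts on mitochondrially encoded genes. Its fibroblast markers summed to 18.1 CPM and its endothelial markers to 12.3 CPM, against 0.500 and 0.642 CPM in replicate 1 and 3.29 and 0.295 CPM in DMSO, and their part in the result was not tested. Without this library 9 genes rose and 1 fell, and without toyocamycin replicate 1 the count of risers was 13.

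At 24 h, 19 of 43 histone genes rose and 1 fell, with 30.7% and 32% of all genes as the background. At 48 h, 32 rose and 1 fell, against 39.2% and 35.5%. These times rest on 1 library an arm, so the fit borrowed its spread from the replicated times. The genes that fell were H2AC16, which was at 0.389 CPM in DMSO and had no count in toyocamycin at 24 h, and H2AC20, at 0.674 and 0.0814 CPM at 48 h. Both were named after their values were seen, and neither fall was called by DESeq2. The median log2 fold change of the histone genes was 1.17 at 24 h and 3.55 at 48 h, against 0.00 and 0.16 over all genes. Of the 43 genes, 15 passed the filter only through toyocamycin, which favours a rise. The risers at both times include genes of this kind, and both medians cover them. With at least 10 counts required in every library, the histone median was 1.19 at 24 h and 2.93 at 48 h. The medians over all genes were then -0.09 and -0.05. Scaled on mitochondrially encoded genes, whose share was higher in toyocamycin, no histone gene rose and 8 fell at 24 h, and 16 rose at 48 h. The DMSO library of 48 h had the lowest histone sum of all 17 libraries, which enters every fold at that time.

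At 72 h, 37 of the 43 histone genes rose and none fell, while 47% of all tested genes rose and 41.9% fell. The median log2 fold change was 3.92, against 0.18 over all genes, and 3.32 when 12 genes with no more than 3 counts in any DMSO library of 72 h were set to their lower bound. The 22 risers among the 28 genes that passed the filter in DMSO alone do not owe their place in the test to toyocamycin. Over all 64 histone genes, 46 had every toyocamycin library above every DMSO library (background 39.4% of all genes with a count) and none had every toyocamycin library below (31.8%), and the arms overlapped or tied in 18. By class, 2 of 3 tested H1 genes rose, 6 of 8 H2A, 17 of 17 H2B, 6 of 7 H3 and 6 of 8 H4. Among the genes that passed the filter in DMSO alone, the counts were 1 of 2 H1 genes, 4 of 6 H2A, 10 of 10 H2B, 4 of 5 H3 and 3 of 5 H4. The median log2 fold change over all genes was 0.50 under DESeq2's size factors, -0.42 on library size alone and -0.89 on mitochondrially encoded genes, a shift that moves all genes alike. The histone median minus that of all genes was 3.74 in the reported fit, 2.96 with no filter on low counts and 2.81 over the 15 histone genes with at least 10 counts in every library.

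**Figure D2:**
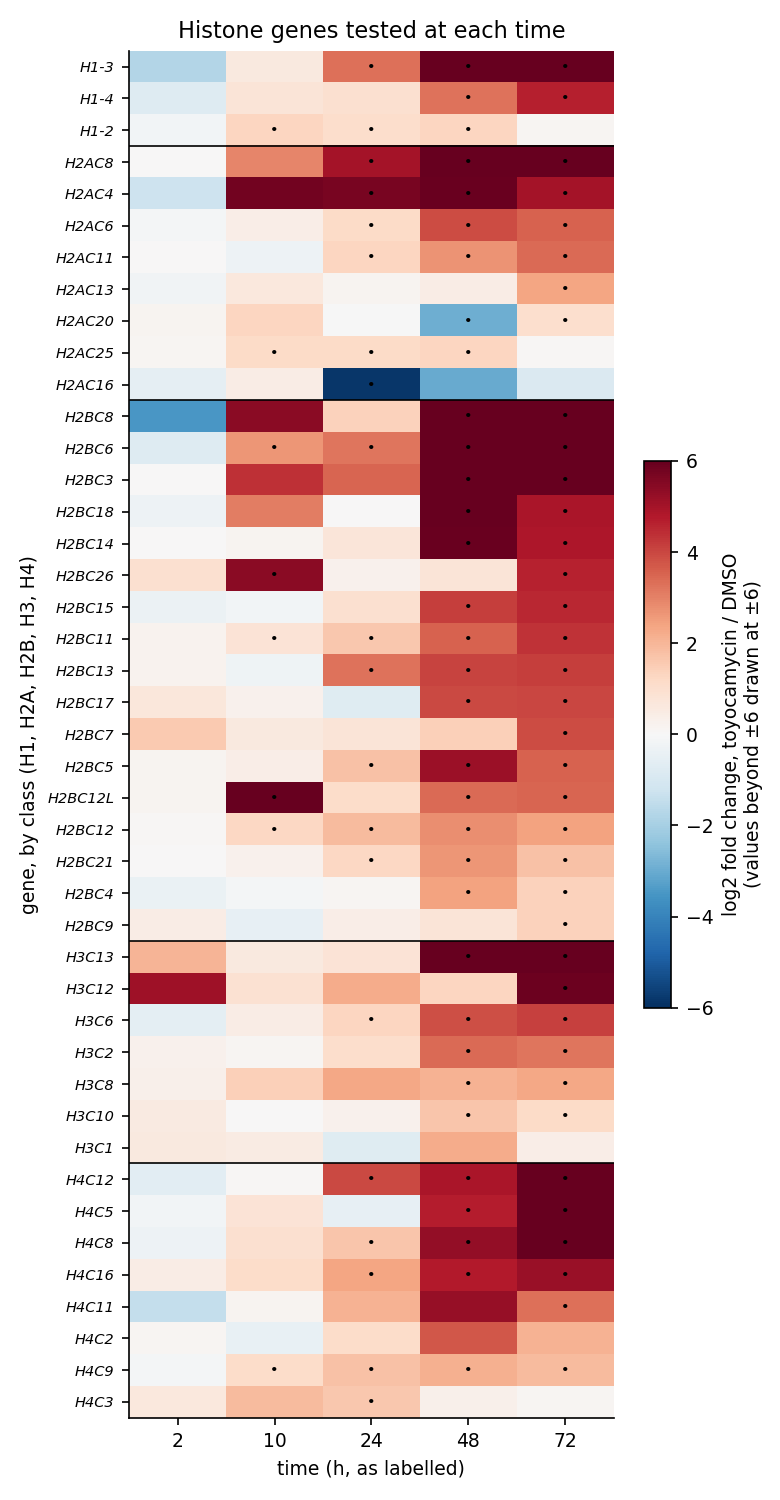
Log2 fold change of toyocamycin against DMSO (colour, drawn at ±6 beyond that) for the 43 histone genes tested in the fit of 2, 24, 48 and 72 h, with the 10 h values from the fit of all libraries. Rows are genes by class, columns are times as labelled, and dots mark calls at an adjusted p under 0.1. No dot stands at 2 h and 37 stand at 72 h, all in red cells.

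Among the linker histones H1-3 and H1-4 rose at 72 h and H1-2 was not called. H1-2 (chr6:26055740-26056470, minus strand) was at 29.0, 27.2 and 25.2 CPM in the DMSO libraries of 72 h and at 31.4, 29.4 and 26.3 CPM in toyocamycin, and the arms overlapped. Its log2 fold change was 0.13 (SE 0.16, adjusted p = 0.470), and it depended on the scaling. It was 0.45 and called higher under DESeq2's size factors (edgeR adjusted p = 0.0204). H1-2 was called lower on library size alone, at -0.47 (edgeR adjusted p = 0.0167). On mitochondrially encoded genes it was also called lower, at -0.97 (edgeR adjusted p = 0.0367). H1-3 (chr6:26234212-26234987, minus strand) had no count in the 3 DMSO libraries of 72 h and stood at 13.2, 12.4 and 11.9 CPM in toyocamycin. With DMSO set to 3 counts per library this was at least 90.0-fold higher. H1-3 passed the filter only through toyocamycin, so its test supports nothing. H1-4 was at 1.39, 0.929 and 0.515 CPM in DMSO and 22.6, 26.1 and 20.3 CPM in toyocamycin, a mean of 0.944 ± 0.436 (SD, n = 3) against 23.0 ± 2.92 (SD, n = 3). Every toyocamycin library was above every DMSO library, with a log2 fold change of 4.65 (SE 0.33, adjusted p = 2.48e-09).

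Of the H2A genes, H2AC6 and H2AC11 rose at 72 h and H2AC25, the most abundant one in DMSO, was not called. H2AC25, on chromosome 1 with annotated transcripts far past the stem-loop, was at 32.1, 35.3 and 26.9 CPM in DMSO and 36.2, 32.8 and 26.9 CPM in toyocamycin at 72 h. The arms overlapped, and the log2 fold change was 0.06 (SE 0.16, adjusted p = 0.742). It was 0.38 and called higher under DESeq2's size factors (edgeR adjusted p = 0.0379). H2AC25 was called lower on library size alone, at -0.54 (edgeR adjusted p = 0.0046). On mitochondrially encoded genes it was also called lower, at -1.04 (edgeR adjusted p = 0.0237). H2AC6, with the longer annotated end, was at 3.42, 2.88 and 3.05 CPM and 37.0, 37.2 and 33.8 CPM in the 2 arms, a log2 fold change of 3.56 (SE 0.16, adjusted p = 1.58e-11). H2AC11, whose annotated transcript ends at the stem-loop, was at 3.62, 2.37 and 3.78 and 34.9, 32.5 and 32.7 CPM, a log2 fold change of 3.39 (SE 0.19, adjusted p = 1.65e-10). In both genes the arms did not overlap. H2AC8 had no count in any of the 8 DMSO libraries and was at 3.15, 2.32 and 1.82 CPM in toyocamycin at 72 h, at least 17.5-fold higher against 3 counts per library. H2AC20, also counted as a riser at 72 h (0.99), was 0.39 on library size alone and -0.14 on mitochondrially encoded genes. It was called under neither of these 2 scalings.

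All 17 tested H2B genes rose at 72 h, of which H2BC3, H2BC6, H2BC7, H2BC8, H2BC14, H2BC18 and H2BC26 passed the filter only through toyocamycin and had to differ. The other 10 passed in DMSO alone. H2BC4, H2BC9 and H2BC21 were not called when scaled on mitochondrially encoded genes, at log2 fold changes of 0.34, 0.36 and 0.64. H2BC12, the most abundant histone gene of the series, was at 25.8, 30.0 and 24.8 CPM in DMSO and 158, 131 and 131 CPM in toyocamycin, a mean of 26.9 ± 2.74 (SD, n = 3) against 139.9 ± 15.6 (SD, n = 3) and a log2 fold change of 2.41 (SE 0.14, adjusted p = 2.12e-10). H2BC5, with AATAAA close behind its stem-loop, was at 3.57, 3.95 and 3.78 and 44.1, 43.0 and 40.0 CPM, a log2 fold change of 3.52 (SE 0.18, adjusted p = 7.48e-11). H2BC21 was at 10.4, 11.2 and 8.88 and 35.6, 36.0 and 28.3 CPM, a log2 fold change of 1.74 (SE 0.16, adjusted p = 4.57e-08), which was 0.64 and not called when libraries were scaled on mitochondrially encoded genes. In each of these genes the lowest toyocamycin library was above the highest DMSO library. H2BC6 went from 4 counts in the 3 DMSO libraries to 7.96, 8.80 and 6.78 CPM, a ratio of 127 (95% counting interval 49.0 to 470.2). H2BC26 was at 0.0495, 0.0464 and 0.215 CPM and 2.36, 3.61 and 2.26 CPM. The other 11 tested H2B genes rose with log2 fold changes from 1.37 (H2BC9) to 7.26 (H2BC8). Among these, H2BC11 and H2BC15 were picked after their values were seen, as they reached the level of the named genes, with 1.44, 1.67 and 1.42 CPM in DMSO and 30.0, 28.1 and 32.2 CPM in toyocamycin for H2BC11 and 2.18, 0.697 and 1.55 and 35.6, 31.4 and 33.0 CPM for H2BC15. H2BC12L, the gene without a stem-loop, was at 0.149, 0.139 and 0.0429 and 1.08, 1.30 and 1.39 CPM, a log2 fold change of 3.49 (SE 0.88, adjusted p = 0.00167).

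H3C6 led the H3 genes. It encodes the canonical histone H3 protein, its annotated transcripts run 1862 bases past the stem-loop, and it stood at 3.42, 3.34 and 3.26 CPM in DMSO and 59.4, 53.4 and 55.2 CPM in toyocamycin at 72 h, a log2 fold change of 4.10 (SE 0.19, adjusted p = 2.13e-11). H3C10 was at 2.68, 3.02 and 2.36 and 7.27, 3.43 and 6.78 CPM, a log2 fold change of 1.15 (SE 0.27, adjusted p = 0.00111), with 1 toyocamycin library close to the highest DMSO library, and it was 0.11 and not called when scaled on mitochondrially encoded genes. H3C8 was at 0.892, 0.557 and 0.472 and 2.26, 2.78 and 4.43 CPM, a log2 fold change of 2.34 (SE 0.38, adjusted p = 3.37e-05), and the arms did not overlap. H3C13 had no count in the DMSO libraries of 72 h and 1.97, 2.59 and 2.95 CPM in toyocamycin, at least 18.0-fold higher against 3 counts per library.

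Nearly all H4 genes encode the same protein, and their transcripts differ mainly outside the coding sequence. H4C9, the most abundant of them in DMSO, was at 3.67, 6.69 and 7.85 CPM in DMSO and 22.02, 22.3 and 22.5 CPM in toyocamycin at 72 h, a log2 fold change of 1.90 (SE 0.22, adjusted p = 7.41e-07). H4C8 was at 0.297, 0.557 and 0.472 and 30.4, 25.8 and 26.2 CPM, a log2 fold change of 5.96 (SE 0.34, adjusted p = 2.04e-10). H4C12, which passed the filter only through toyocamycin, was at 0, 0.279 and 0.215 and 14.1, 17.4 and 17.2 CPM. The arms did not overlap in any of these 3 genes. H4C12 is uncertain as a single gene, because only 8.7% of its 100-base stretches are unique among the histone genes. The same holds, at under 50% unique, for 8 other histone genes, of which H2AC13 and H4C11 were tested.

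**Figure D3:**
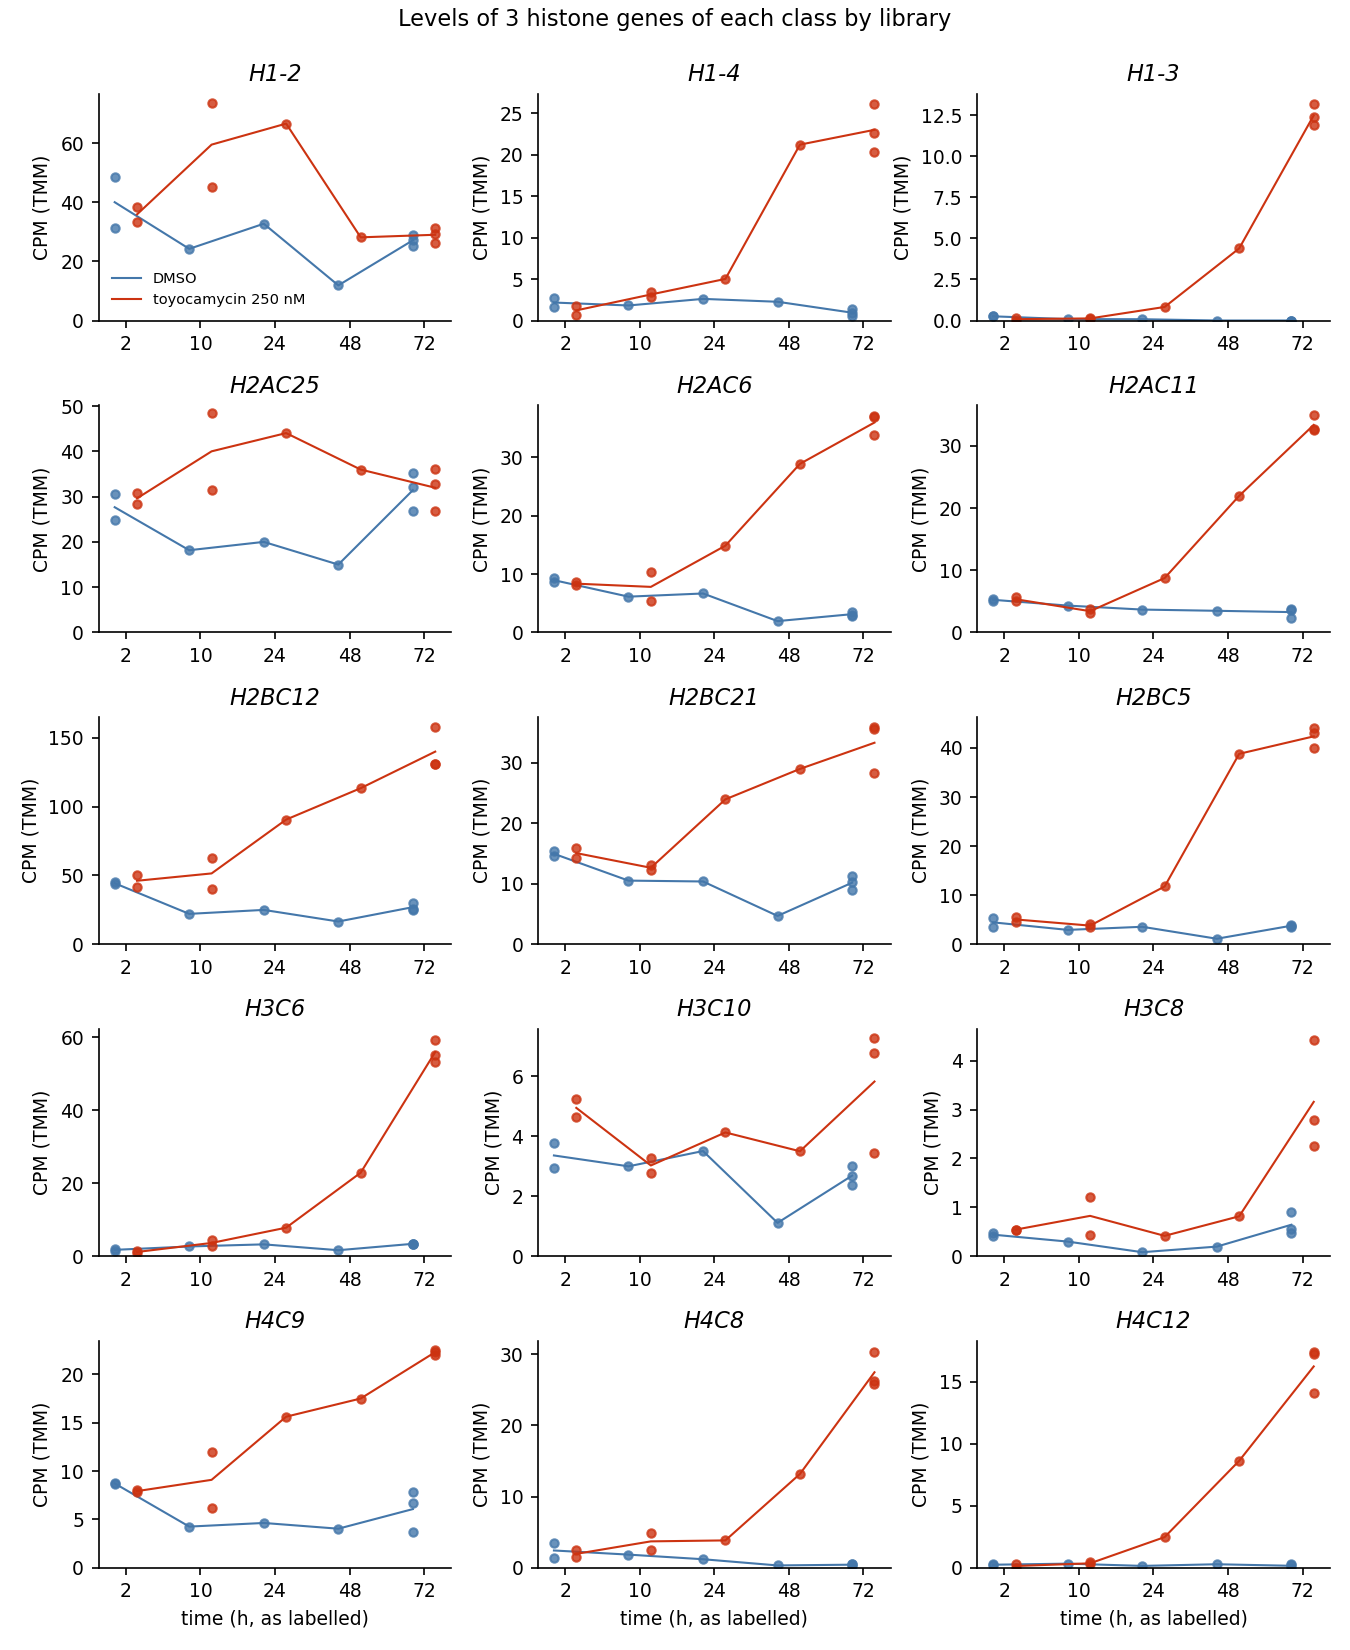
Levels (CPM, TMM scaled, each panel on its own axis from 0) of the 3 tested histone genes with the highest average level in each class, by time as labelled. Points are libraries and lines join arm means, with DMSO in blue and toyocamycin in red. H1-2 and H2AC25 peak in the toyocamycin libraries of 10 or 24 h and overlap DMSO at 72 h, while the other 13 genes are highest in toyocamycin at 72 h.

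The 6 tested histone genes that were not called at 72 h were H1-2, H2AC16, H2AC25, H3C1, H4C2 and H4C3. Under DESeq2's size factors 3 of them were called higher, H1-2, H2AC25 and H4C2, the last at 2.41 (edgeR adjusted p = 0.0926). On library size alone H1-2 and H2AC25 were called lower. On mitochondrially encoded genes H1-2, H2AC25 and H2AC16 were called lower, the last at -1.79 (edgeR adjusted p = 0.0792). H1-2 and H2AC25 stood higher in toyocamycin at 24 h, in 1 library an arm, from 32.8 CPM in DMSO to 66.6 CPM in toyocamycin for H1-2 and from 19.98 to 44.02 CPM for H2AC25, and no histone gene rose at that time when scaled on mitochondrially encoded genes. The other 4 were below 1 CPM in every library of 72 h. Compared per kilobase of exons, H2BC12 was the highest histone gene in DMSO at 72 h (54.3 CPM per kilobase), followed by H1-2 (37.1), H2AC25 (16.98) and H4C9 (15.3). In toyocamycin the order was H2BC12 (283 CPM per kilobase), H2AC11 (67.7), H4C9 (56.1), H2BC5 (49.2) and H4C12 (41.9), with H1-2 (39.7) next.

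Whether genes with an annotated longer transcript end rose more often was read from the counts. Of the 14 tested genes with an annotated end at least 100 bases past the stem-loop, 13 rose at 72 h, and the median log2 fold change of the 14 was 4.22. Of the 28 tested genes annotated to end at the stem-loop, 23 rose, and the median of the 28 was 3.65. The summed level was 5.47 times that in DMSO in the first and 4.70 times in the second set, and the difference between the sets was not tested. Both counts include genes that passed the filter only through toyocamycin. Of 6 genes listed as known to make polyadenylated mRNA (H1-2, H2AC6, H2BC4, H2BC5, H2BC12 and H2BC21), 5 rose at 72 h, with a median of 2.08. Of these, H1-2 and H2BC12 are in the set annotated to end at the stem-loop. With H2AC25, of the set with the longer end, they held 63.6% to 67.3% of the histone counts in DMSO at 72 h. The summed ratios of both sets thus rest largely on these 3 genes in DMSO. By position, 17 of 21 tested genes of the chromosome 6 cluster below 27 Mb rose, 13 of 14 in the cluster above it, and 7 of 8 on other chromosomes. The counts by position also include genes that passed the filter only through toyocamycin. Over all tested genes 47% rose at 72 h.

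The effect of toyocamycin at 72 h differed from that at 2 h in the same direction across most of the histone genes. The difference between the effects was tested in the same fit. It was positive for 30 of 43 histone genes and negative for none, against 38% and 38.1% of all genes. The 30 include genes that passed the filter only through toyocamycin and had to differ. These were H1-3, H2AC4, H2BC6, H2BC7, H2BC8, H2BC18, H2BC26, H3C13, H4C5, H4C11 and H4C12. For H3C6 the effect at 72 h exceeded that at 2 h by 4.68 (SE 0.35, adjusted p = 1.24e-08) on the log2 scale, and for H2BC12 by 2.35 (SE 0.21, adjusted p = 8.65e-08). For H1-2 the difference was 0.28 (SE 0.26, adjusted p = 0.335).

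In DMSO alone, more histone genes fell than rose with time in culture. Between 2 and 72 h, 11 of 43 fell and 1, H3C6, rose, against 11.4% falling and 10.2% rising among all genes, and the median log2 fold change was -0.66 against -0.03. The genes that fell were H1-2, H1-3, H1-4, H2AC6, H2AC11, H2BC4, H2BC6, H2BC11, H2BC12, H2BC21 and H4C8. H4C8 went from 1.43 and 3.44 CPM at 2 h to 0.297, 0.557 and 0.472 CPM at 72 h, a log2 fold change of -2.41 (SE 0.41, adjusted p = 0.00108), and H2AC6 from 9.26 and 8.64 to 3.42, 2.88 and 3.05 CPM, -1.52 (SE 0.17, adjusted p = 3.59e-05). H3C6 went from 1.94 and 1.44 to 3.42, 3.34 and 3.26 CPM, 0.97 (SE 0.24, adjusted p = 0.0141), and was not called without DMSO replicate 2 of 2 h. The comparison at 72 h shares its DMSO libraries with this one. One of the 2 libraries of 2 h is in batch 2, and when scaled on mitochondrially encoded genes 1 gene fell.

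Genes that act on histone mRNA and on histone supply did not rise as a group at 72 h. Over all tested genes 47% rose and 41.9% fell at that time. Of 20 genes of S phase, which encode replication enzymes and their regulators, 19 fell at 72 h and 1 rose, PCNA, and their summed level was 3229, 3276 and 3182 CPM in DMSO and 1069, 1019.9 and 1212 CPM in toyocamycin. RRM2, a subunit of ribonucleotide reductase, was at 305, 309 and 364 CPM in DMSO and 19.0, 15.4 and 20.9 CPM in toyocamycin, a log2 fold change of -4.11 (SE 0.16, adjusted p = 3.33e-12), and CCNE1, a cyclin of S phase entry, fell by 6.68. The 19 falls were called under each of the 3 other scalings, while the rise of PCNA (0.78) was not called on library size alone and was -0.28 on mitochondrially encoded genes. In bulk RNA, fewer cells in S phase and less RNA per cell cannot be told apart. Of 11 histone chaperone genes, 8 fell and 1 rose, among them CHAF1B, a subunit of the CAF-1 complex that deposits new H3 and H4 (-3.62), and NASP, a chaperone of soluble H3 and H4 (-2.73). The riser was ASF1A (2.24). Under the other scalings 7 to 10 chaperone genes fell and 1 rose.

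Of 25 genes for histone mRNA transcription, 3' end processing and decay, 14 fell and 8 rose at 72 h, with 14 to 16 falling and 4 to 9 rising under other scalings. The background over all tested genes was 41.9% falling and 47% rising. SLBP, which binds the stem-loop, was at 187, 193 and 189.9 CPM in DMSO and 65.5, 61.9 and 67.9 CPM in toyocamycin, a log2 fold change of -1.51 (SE 0.13, adjusted p = 3.41e-08). LSM11 of the U7 particle was at 73.6, 69.9 and 74.7 and 7.86, 6.21 and 6.34 CPM, -3.39 (SE 0.15, adjusted p = 1.60e-11), and NELFB and NELFE fell by 2.23 and 1.94. The risers included CSTF2T (3.50) and CSTF3 (2.19), subunits of the cleavage stimulation factor, and NCBP2, the cap-binding subunit (3.02). Their partners NCBP1 and CSTF2 were lower. NCBP1 was at 52.6, 54.01 and 66.01 CPM in DMSO and 24.9, 22.1 and 26.9 CPM in toyocamycin. CSTF2 was at 35.4, 33.7 and 35.1 and 23.5, 20.01 and 23.3 CPM. CDK9 was at 78.7, 69.99 and 61.5 and 25.8, 27.3 and 24.2 CPM. In SYMPK, CPSF2 and CPSF3 every toyocamycin library was also below every DMSO library. At 2 h, when no histone gene was called, 5 of the 25 genes of this list fell, against 8.42% of all tested genes. None of the 5 was called when scaled on mitochondrially encoded genes. NPAT, the transcriptional coactivator of the histone clusters, was at 15.1 and 20.6 CPM in DMSO and 5.97 and 5.80 CPM in toyocamycin at 2 h, a log2 fold change of -1.59 (SE 0.24, adjusted p = 6.26e-04). CASP8AP2, a partner of NPAT at the histone locus body, fell by 1.23, and ZNF473, CSTF2T and DCP2 fell by 0.72, 1.08 and 0.82.

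Replacement histone genes, which are made outside S phase and mostly carry ordinary polyA tails, did not move as one. Of 12, 5 rose and 7 fell at 72 h, against 47% rising and 41.9% falling among all tested genes, and the median log2 fold change was -0.64. Under other scalings 6 to 7 fell and 2 to 5 rose. H3-3B, which encodes H3.3, was at 671, 641 and 658 CPM in DMSO and 2649.6, 2503 and 2403 CPM in toyocamycin, 1.97 (SE 0.12, adjusted p = 5.05e-10). H2AZ1 was at 139, 146 and 173 and 28.5, 24.8 and 23.3 CPM, -2.55 (SE 0.14, adjusted p = 8.96e-11). H2AX, which has a stem-loop as well as a polyadenylated form, was at 362, 354 and 262 and 82.0, 105 and 124 CPM, -1.62 (SE 0.20, adjusted p = 1.51e-06), opposite in direction to the 37 histone genes that rose. BTBD10, the other tested gene outside the class with a stem-loop match, rose by 1.37 (SE 0.15, adjusted p = 5.98e-07).

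**Figure D4:**
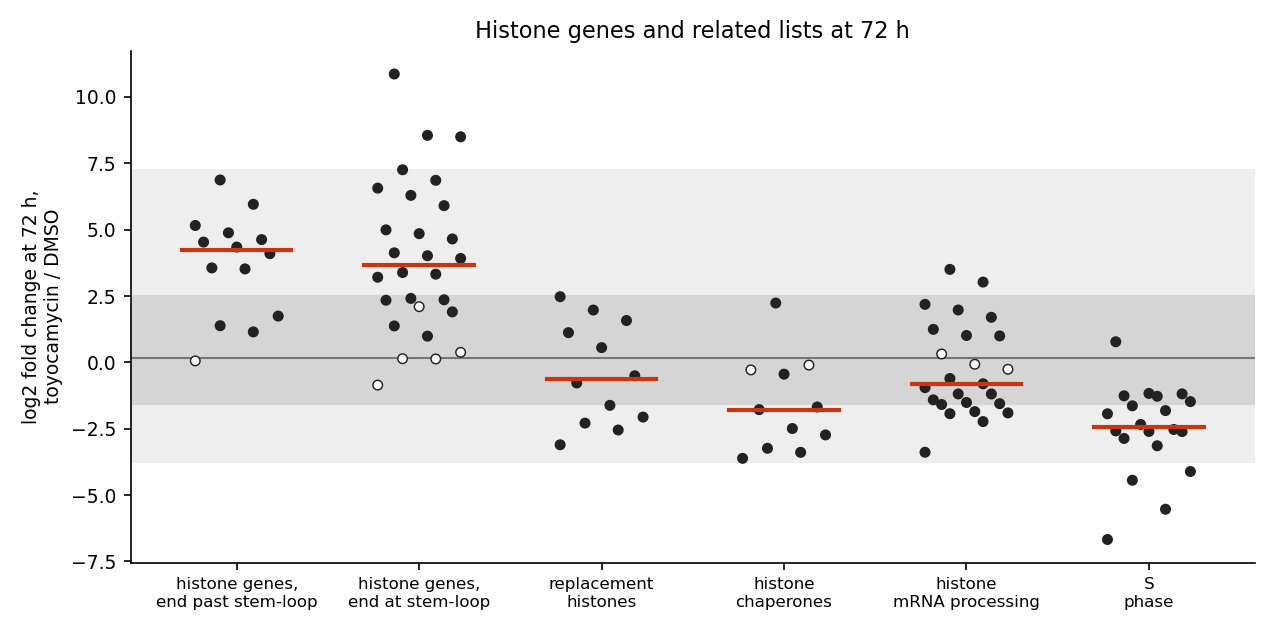
Log2 fold change at 72 h (toyocamycin against DMSO) of the tested histone genes by annotated transcript end, and of the 4 other lists. Points are genes, filled where called at an adjusted p under 0.1, red bars are medians, and the grey bands hold the middle 50% and 90% of all tested genes around their median of 0.18. The histone medians are 4.22 and 3.65, and those of the other lists are below 0.

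The labelled tissue was checked on its markers. The 10 colon epithelial markers, of which KRT20 and CDX1 did not pass the filter, summed to 6221, 6688 and 5815 CPM in DMSO and 561, 527 and 552 CPM in toyocamycin at 72 h, with 6 genes lower and 2 higher. EPCAM was at 275, 253 and 289 CPM in DMSO and 121, 90.9 and 96.4 CPM in toyocamycin. Most of the DMSO sum was KRT8, at 4270, 4689 and 3922 CPM, and KRT18, at 1222, 1283 and 1140 CPM. The 2 higher genes were CDX2 and LGALS4. CDX2 was not called on library size alone (0.009) or on mitochondrially encoded genes (-0.52). The fibroblast markers summed to 0.941, 0.372 and 0.644 and 2.06, 20.9 and 2.09 CPM, with 4 of 4 called higher. COL1A1 was at 0.941, 0.372 and 0.472 CPM in DMSO and 0.491, 12.3 and 1.30 CPM in toyocamycin. COL1A2 was at 0, 0 and 0.0858 and 0, 5.65 and 0 CPM. The arms overlapped in both genes, with the highest value in toyocamycin replicate 2, but not in COL3A1 and DCN. The leukocyte markers summed to 0.396, 0 and 0.129 and 16.3, 14.5 and 17.4 CPM, with 1 of 2 tested higher. The endothelial markers summed to 0.446, 0.325 and 0.258 and 1.57, 2.50 and 3.56 CPM, with 1 of 2 higher. Most of the leukocyte sum in toyocamycin was CD14, at 15.9, 13.99 and 17.03 CPM, against 0.149, 0 and 0.129 CPM in DMSO. PTPRC, which defines leukocytes, was at 0.248, 0 and 0 CPM in DMSO and 0, 0.371 and 0.348 CPM in toyocamycin. CD3E had no count in DMSO and was at 0.393, 0.185 and 0 CPM in toyocamycin. The part of these changes in the histone result was not tested.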

How the data were processed

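PolyA-selected RNA of YB5 cells was sequenced as paired reads. Per the labels, the authors used STAR 2.7.5a and GRCh38 (with Ensembl release 100, by the study's methods) and deposited counts of uniquely mapped reads per gene as whole numbers, without normalization. The strand setting is not given in the sources used here. A second deposited table holds the authors' own log2 fold changes and p-values and was not used. Groups came from the labels, and 1 count column that matches no sample was not used. Symbols were taken for 19080 of 19141 genes, and gene models, stem-loops and promoters from GENCODE 44, GRCh38 and RefSeq. The stem-loop was searched by the histone stem-loop pattern on the sense strand.

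Counts were filtered with filterByExpr, scaled by TMM and tested with edgeR 4.0.16 in R 4.3.3, by its quasi-likelihood test in the older form, with calls at an adjusted p under 0.1. The 14 libraries without 10 h (14491 genes) gave all results but that of 10 h, which came from all 17 libraries (16521 genes). Levels are CPM on TMM scaling of the 17 libraries. Depth was 8735465 to 22121364 counts, and a floor of 3 counts per library and 95% exact intervals cover counting error only. The test was checked on simulated counts. Alternatives were other scalings, DESeq2 1.42.0, other filters and thresholds, batch, the replicate block and leaving out each replicate. At 2 h the replicate number is the labelled batch, and deviations of same-numbered libraries correlated at 0.34, so the numbers pair libraries there. Figures were drawn with Python 3.11.15.

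The members and lists were chosen with earlier results of these data known. Named genes were the 3 tested members of each class with the highest average level, at 2, 10 and 72 h the called members that rose or fell most (3 in each direction), and genes of the lists. The lists are not independent evidence of a direction.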

Additional observations from a re-analysis of the deposited data

Results flagged for a closer look

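A total of 30 histone genes had an effect of toyocamycin at 72 h that differed from the effect at 2 h by a test of the difference itself (edgeR's quasi-likelihood test, Benjamini-Hochberg adjusted p under 0.1, with 38% of all genes called in the same direction). Among those named, the difference in log2 fold change was 12.61 for H1-3, 7.67 for H2BC6, 7.19 for H4C12, 6.52 for H3C13, 6.26 for H4C8 and 5.44 for H1-4. It was 4.68 for H3C6, 3.67 for H2BC26, 3.66 for H2AC6, 3.36 for H2AC11, 3.34 for H2BC12L and 3.34 for H2BC5. The smallest of them were 2.35 for H2BC12, 2.05 for H3C8, 2.04 for H4C9 and 1.73 for H2BC21. The values of H1-3 and H3C13 rest on DMSO libraries without a count at 72 h and depend on the prior count. H1-3, H3C13, H2BC6, H2BC26 and H4C12 passed the filter only through toyocamycin and had to differ. So did H2AC4, H2BC7, H2BC8, H2BC18, H4C5 and H4C11, which are among the 30 but not named above.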

How the results depend on the processing

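Over the alternatives tried, 178 of the counts of called histone genes and summed levels stayed within 1.5 times the reported value or within 1 SD, and 40 moved. Under DESeq2's size factors 40 histone genes rose at 72 h, with calls for H1-2 (0.45) and H2AC25 (0.38). On library size alone, 4 histone genes rose and 1 fell at 10 h, 7 rose at 24 h, 2 fell at 72 h, and the difference between 72 and 2 h was negative for 1. At 72 h the log2 fold changes of H1-2 and H2AC25 were then -0.47 and -0.54, and the ratio of summed levels was 0.954 at 2 h and 3.41 at 72 h. Scaled on mitochondrially encoded genes, 1 rose and 1 fell at 10 h, 0 rose and 8 fell at 24 h, 16 rose at 48 h, 3 fell at 72 h and 1 fell with time in DMSO, with -0.97 for H1-2 and -1.04 for H2AC25. With DESeq2's Wald test 13 rose at 10 h and 0 fell at 24 and at 48 h. With at least 10 counts required in every library, which left 14 histone genes at 10 h and 15 at the other times, there were 5 risers at 10 h, 10 risers at 24 h, 14 at 48 h and then 15 at 72 h, the difference between 72 and 2 h was positive for 14, and 0 fell at 24 or 48 h. With a minimum fold change of 1.5, 4 rose at 10 h, and 6 fell and 0 rose with time in DMSO. At an adjusted p under 0.05, 0 fell at 24 and at 48 h. With batch as a term 13 rose at 10 h and 0 fell at 24 h. In all 17 libraries without a batch term, a setting chosen after seeing the data, 0 fell at 24 h, and edgeR's newer quasi-likelihood form, also added, moved no count by over 1.5 times. Without the 3 genes with the most counts the summed ratio at 72 h was 10.3. The cause of these changes was not tested.

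With the replicate block, fitted to the libraries of 2 h alone, 1 of 23 tested histone genes, H1-4, fell at 2 h, and the block changed no other call count by over 1.5 times. At 72 h the libraries share only a number, with correlations of deviations of -0.13, 0.06 and -0.12. Leaving out 1 library at a time, the count of risers was 0 to 1 at 2 h, 9 to 13 at 10 h and 36 to 37 at 72 h, and that of fallers 0 to 1 at 2 h and 0 to 1 at 10 h. The difference between 72 and 2 h was positive for 28 to 31 genes, and with time in DMSO 0 to 1 rose and 8 to 12 fell. H2AC25 ranged from -0.047 to 0.172 at 72 h and was below 0 without DMSO replicate 3 (-0.047) or toyocamycin replicate 1 (-0.03). For the 20 named genes, 418 other values kept direction and call, 20 lost and 6 gained a call, and 6 turned sign. The 21 untested genes had few counts, and 24 and 48 h have no replicate. In the untested H2AC14, H2AC17, H3C14, H3C15, H4C14 and H4C15, under 50% of the 100-base stretches are unique among the histone genes. Only uniquely mapped reads were counted, so depth is not the only limit for these genes. Of the untested genes, H3C11 had no count in the DMSO libraries of 72 h and 4, 5 and 6 counts in toyocamycin. H2BC10 likewise had none in DMSO and 2, 8 and 6 in toyocamycin. In others, such as H4C1 and H3C7, the arms overlapped.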
